A study of Rattus norvegicus with 12 samples.

Results

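Hepatocytes take bile acids (BA) up from portal blood and pump them into bile, and the 10 genes described here encode the main carriers of this route in rat liver. They were chosen by name, as the transporters that move BA and the other bile lipids across the 2 faces of the hepatocyte, and they are 10 of the 14692 genes in the table. Of the 10 members 3 serve uptake from blood, 5 serve export across the canalicular membrane into bile, and 2 serve export back across the basolateral membrane. All 10 have a row, 7 were above 0 in at least 1 column, and 6 passed the filter on low values (a mean of at least 1 RPKM) and could be tested.

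Each membrane of the hepatocyte has its own carriers. The sodium-dependent carrier Ntcp (SLC10A1) and the sodium-independent carriers Oatp1a1 (SLCO1A1) and Oatp1a4 (SLCO1A4) bring BA and other organic anions in from the sinusoid. At the canaliculus the bile salt export pump Bsep (ABCB11) and the conjugate pump Mrp2 (ABCC2) secrete bile salts and conjugated anions, Mdr2 (ABCB4) moves phosphatidylcholine to the outer leaflet, and the sterolin subunits ABCG5 and ABCG8 join into 1 heterodimer that secretes sterols. Mrp3 (ABCC3) and Mrp4 (ABCC4) return anions to blood and are known for their induction when bile flow is blocked.

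RNA of the liver was sequenced from male Sprague Dawley rats of 4 to 5 months at 0, 4, 12 and 24 h after partial hepatectomy (PH), which removes most of the liver and starts its regrowth. Every rat carried a duodenal catheter. In Control, the fistula was only shammed 24 h ahead of PH. Another group had a biliary fistula that drained bile from the same time, and a further group had the fistula together with sodium taurocholate, a bile salt, infused into the duodenum from 12 h before PH. The design asks how these livers differ when BA do not return from the intestine.

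The deposited table has 12 columns, 1 for each of 3 groups at 4 times, and each column combines 2 runs of the sequencer, of which 1 read the RNA of a single rat and the other a pool of 3 rats, or 4 rats in all. No spread between rats can be computed from it, and the number of reads behind a column is unknown. The columns are headed Cont (Control here), BF and BA. The paper's plots use BF for the drained fistula and BA for the fistula with infusion, whereas the sample descriptions give the infusion to the samples titled BF. Groups are therefore named here by the column heads. A direction between BF and BA cannot be read as an effect of infusion, but the contrast of both fistula groups with Control does not depend on the naming.

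Some columns stood apart from the rest. In the BA column at 4 h, albumin (ALB) took 30.9% of the summed RPKM, against 5.6% to 13.4% in the other 11 columns. The BF column at 12 h held pancreatic acinar markers at a summed 143.2 RPKM (9 of 11 markers found), against 5.22 to 23.4 RPKM elsewhere. CTRB1 (84.7 RPKM) led that sum, while CELA1, which made up most of the sum elsewhere, was not raised there (6.03 RPKM). The enterocyte markers (5 of 5 found) were highest in the BF column at 24 h, at a summed 31.8 RPKM, against 1.66 to 16.2 RPKM elsewhere. The neutrophil markers (4 of 4 found) summed to 2.89 RPKM in Control at 0 h. In all other columns they summed to between 21.9 and 62.2 RPKM. S100A8 and S100A9 carried these sums, while the granule genes MPO and ELANE stayed at or below 0.07 RPKM. Hepatocyte markers (7 of 8 found) summed to between 80644 and 348406 RPKM, and cholangiocyte markers (6 of 8 found) to between 8.67 and 21.2 RPKM. The part of these shifts in the results was not tested. For the results called, and for the contrasts of ABCG5, ABCG8, ABCB4 and ABCC4 that rest on these columns, values without them are given beside the result.

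The start sites of SLC10A1, SLCO1A1 and the sterolin pair are shown because these members carried the largest differences. The sequences are the 250 bases before the RefSeq start of each gene in the rat assembly GRCr8, or, for ABCG8 and ABCG5, the whole stretch between their start sites. ABCG5 and ABCG8 lie head to head on chromosome 6 with only 205 bases between the starts, so that 295 of the 300 bases of their promoter windows are the same DNA. Capitals mark exact matches to the hexamer AGGTCA of nuclear receptors, the hexamer GTTAAT of HNF1, the TATA box TATAAA or the antioxidant response element TGACNNNGC, searched on both strands.
SLC10A1, chr6:106357945-106358194, minus strand: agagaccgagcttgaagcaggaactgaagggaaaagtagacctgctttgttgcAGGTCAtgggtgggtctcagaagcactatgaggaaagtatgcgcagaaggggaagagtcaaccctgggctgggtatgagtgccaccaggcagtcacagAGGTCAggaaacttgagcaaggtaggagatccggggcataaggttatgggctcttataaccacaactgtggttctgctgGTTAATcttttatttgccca
SLCO1A1, chr4:176681993-176682242, minus strand: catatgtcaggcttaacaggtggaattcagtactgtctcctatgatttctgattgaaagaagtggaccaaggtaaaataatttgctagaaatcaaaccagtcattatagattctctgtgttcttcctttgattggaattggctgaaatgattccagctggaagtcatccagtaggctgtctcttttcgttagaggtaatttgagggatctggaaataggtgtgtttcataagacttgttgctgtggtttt
ABCG8 to ABCG5, chr6:15717731-15717935, plus strand, in the direction of ABCG5: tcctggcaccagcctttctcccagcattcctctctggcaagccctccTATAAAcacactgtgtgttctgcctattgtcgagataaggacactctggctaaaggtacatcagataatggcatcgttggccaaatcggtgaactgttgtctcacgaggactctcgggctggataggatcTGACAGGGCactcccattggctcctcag
In SLC10A1 the nuclear receptor hexamer stood from -197 to -192 and again from -99 to -94 of the start, and GTTAAT from -20 to -15. The stretch between ABCG8 and ABCG5 held TATAAA at bases 48 to 53 and a match to the antioxidant response element at bases 178 to 186. The SLCO1A1 window held none of the letters searched. AGGTCA is found in 16.2% of all 33469 windows, GTTAAT in 7.45%, TATAAA in 14.2%, the antioxidant element in 12.1% and the E-box CACGTG, which of the members only SLCO1A4 held, in 6.42%. Of the 8 members with a window, ABCC2 also held the nuclear receptor hexamer, the HNF1 hexamer and the antioxidant element. No member held a pair of nuclear receptor hexamers, inverted with 1 base between or direct with 1 or 4 bases between. A match describes letters and no binding was measured.

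SLC10A1 had the largest time differences of the tested members. Ntcp (SLC10A1), the main sodium-dependent BA carrier of the basolateral membrane, stood at 616 RPKM at 0 h, 326 at 4 h, 56.0 at 12 h and 198 at 24 h in Control. In BF it went through 536, 216, 87.6 and 200.05 RPKM at the same times. In BA it went through 446, 288, 61.9 and 195 RPKM. All 3 groups were highest at 0 h and lowest at 12 h, and at 24 h they lay within 1.03-fold of each other. The 12 h level was 9.1% of the 0 h level in Control, 16.4% in BF and 13.9% in BA, and the 24 h level was 32.1%, 37.4% and 43.6%.

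These time differences were tested with limma in an additive fit of group and time to log2(RPKM + 1) over all 12 columns, which has 6 residual degrees of freedom. The test asks whether a difference is larger than the departure of the columns from additivity, and does not see the spread between rats. SLC10A1 fell at 4 h by 0.95 ± 0.20 on the log2 scale (SE, limma adjusted p = 0.00570). At 12 h it fell by 2.95 ± 0.20 (SE, limma adjusted p = 0.000148) and at 24 h it was still down, by 1.41 ± 0.20 (SE, limma adjusted p = 0.00142). At each of the 3 times it passed the threshold of 0.05 in all 21 alternative fits that tested that time. Without the BA column at 4 h the difference at 4 h was -1.05 (limma adjusted p = 0.0130), and without the BF column at 12 h that at 12 h was -3.19 (limma adjusted p = 0.000120). Without Control at 0 h the SLC10A1 differences were -0.84, -2.84 and -1.30 and passed at all 3 times. In a bulk sample, fewer hepatocytes and less RNA per hepatocyte cannot be told apart. The summed hepatocyte markers were also lower at 12 h than at 0 h, at 87073 against 152705 RPKM in Control, 83469 against 136537 in BF and 80644 against 133291 in BA. Of the 7 markers found, limma gave differences at 12 h from -1.12 (ALB) to 0.17 (SERPINA1), and none passed. The part of these shifts in the fall of SLC10A1 was not tested.

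The organic anion carrier Oatp1a1 (SLCO1A1) followed a similar course over a smaller range. Control went through 298, 209, 78.7 and 131 RPKM at 0, 4, 12 and 24 h. BF went through 181, 127, 113 and 171 RPKM. BA went through 165, 127, 56.0 and 157 RPKM. Every group was lowest at 12 h, and by 24 h BF and BA stood at 94.3% and 95.5% of their 0 h level while Control stood at 44.0%. SLCO1A1 fell at 12 h by 1.38 ± 0.27 on the log2 scale (SE, limma adjusted p = 0.00595). Without all BA columns the difference was -1.29 and just missed the threshold (limma adjusted p = 0.0502), and it passed in the other 20 of 21 alternatives. Without the BF column at 12 h it was -1.67, and without Control at 0 h -1.16 (limma adjusted p = 0.0309). At 4 h and 24 h the differences were -0.46 and -0.44 and did not pass.

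At 0 h and 4 h Control held more SLCO1A1 than either fistula group, by 1.65-fold and 1.81-fold at 0 h. At 12 h BF was above Control, and at 24 h both fistula groups were. Averaged over both groups and all times, the contrast of BF and BA with Control was -0.29 ± 0.20 (SE). It did not pass (limma adjusted p = 0.364). The level of SLC10A1 was 2.06 to 2.96 times that of SLCO1A1 at 0 h, by RPKM, which is per length. At 12 h that ratio was 0.712 in Control, 0.777 in BF and 1.11 in BA. Oatp1a4 (SLCO1A4), the third uptake member, is listed at 0 in all 12 columns.

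**Figure D1:**
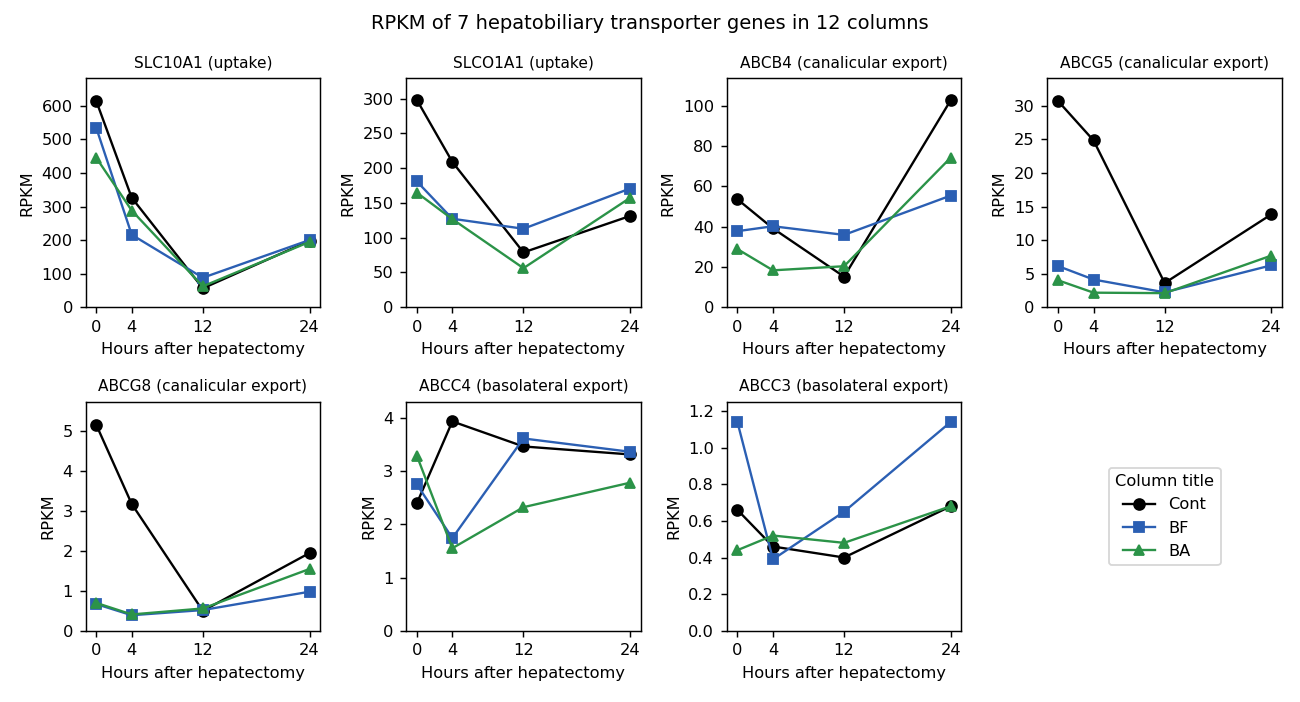
RPKM (linear axis from 0) of the 7 members above 0 against hours after PH, 1 panel a gene and 1 line for each column head, with 1 value per point and no error. SLC10A1 and SLCO1A1 reach their lowest value at 12 h in all 3 groups, and ABCG5 and ABCG8 are far higher in Control than in BF and BA at 0 and 4 h.

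Of the canalicular exporters, the sterolin pair ABCG5 and ABCG8 held the largest gap between Control and both fistula groups. ABCG5 stood at 30.7, 24.9, 3.59 and 13.8 RPKM in Control at 0, 4, 12 and 24 h. In BF it stood at 6.12, 4.11, 2.20 and 6.23 RPKM. In BA it stood at 4.00, 2.15, 2.08 and 7.68 RPKM. Control was above both fistula groups at all 4 times, by 5.02-fold over BF and 7.68-fold over BA at 0 h, and by 1.63-fold and 1.73-fold at 12 h, when Control itself was lowest. The gap was thus present at the time of PH, after 24 h of fistula.

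The contrast of BF and BA together with Control was -1.64 ± 0.33 (SE) for ABCG5 and lay just outside the threshold (limma adjusted p = 0.0501). It passed in 4 of 21 alternatives, with adjusted p between 0.0291 and 0.220 over all 21. Without Control at 0 h, where the neutrophil markers were lowest, it was -1.38 (limma adjusted p = 0.198). Without the BA column at 4 h it was -1.49 (limma adjusted p = 0.0710), and without the BF column at 12 h -1.70 (limma adjusted p = 0.0774). The separate contrasts were -1.51 for BF (limma adjusted p = 0.0961) and -1.76 for BA (limma adjusted p = 0.0909), and they share the Control columns. Over time, ABCG5 fell at 12 h by 1.55 ± 0.44 on the log2 scale (SE, limma adjusted p = 0.0261). Without the BF column at 12 h it was -1.73 and passed (limma adjusted p = 0.0433). The call was lost without Control at 0 h (-1.20, limma adjusted p = 0.113), without Control at 12 h (-1.06, limma adjusted p = 0.118) and without BF at 0 h (-1.63, limma adjusted p = 0.0640). It was also lost without all Control columns (-0.93, limma adjusted p = 0.0634) or all BF columns (-1.74, limma adjusted p = 0.122).

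ABCG8 ran lower than its partner throughout. Control stood at 5.17, 3.18, 0.50 and 1.95 RPKM at 0, 4, 12 and 24 h. BF stood at 0.67, 0.39, 0.52 and 0.98 RPKM. BA stood at 0.70, 0.41, 0.56 and 1.55 RPKM. At 0 h Control was 7.72-fold above BF and 7.39-fold above BA, at 4 h 8.15-fold and 7.76-fold, and at 12 h the 3 groups lay within 1.12-fold. The joint contrast with Control was -0.95 ± 0.27 on the log2(RPKM + 1) scale (SE, limma adjusted p = 0.0903), a scale that understates differences near 1 RPKM. Without Control at 0 h it was -0.64 (limma adjusted p = 0.292). Without the BA column at 4 h it was -0.89 (limma adjusted p = 0.134), and without the BF column at 12 h -1.04 (limma adjusted p = 0.117). It passed in only 1 of 21 alternatives, without Control at 12 h (-1.28, limma adjusted p = 0.0487). Over all 21 the limma adjusted p ran from 0.0487 to 0.3095.

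ABCG5 and ABCG8 had the most alike courses of any pair of members. Pearson's r of log2(RPKM + 1) was 0.952 over the 12 columns, which share their groups and times. ABCG8 was also the gene closest to ABCG5, and ABCG5 the gene closest to ABCG8, among all 8459 tested genes by this measure. By Spearman's rho the pair stood at 0.832 and neither was among the 3 genes closest to the other. By RPKM, ABCG5 stood at a median of 6.15 times ABCG8, from 3.71 to 10.5 times over the columns. After adding 1 RPKM the log2 ratio had a median of 1.82 and an SD over columns of 0.53, and with 0.1 RPKM added the median was 2.55.

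**Figure D2:**
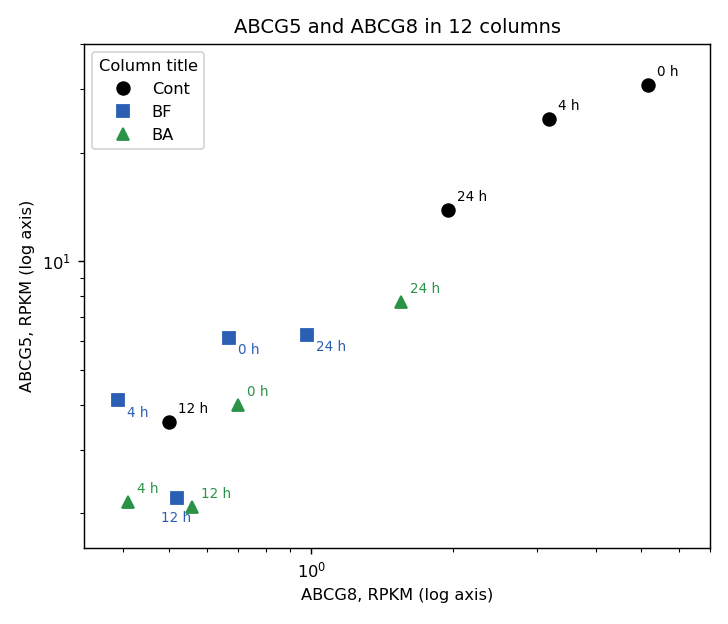
RPKM of ABCG5 against ABCG8, both on log axes, with 1 point for each of the 12 columns, the marker giving the column head and the label the hours after PH. Control at 0, 4 and 24 h lies above all fistula columns on both axes, and Control at 12 h lies among them.

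Mdr2 (ABCB4), the phosphatidylcholine translocator, took another course. Control went through 53.6, 39.1, 15.1 and 103 RPKM at 0, 4, 12 and 24 h. BF went through 37.7, 40.1, 35.9 and 55.4 RPKM. BA went through 28.8, 18.3, 20.3 and 74.2 RPKM. All 3 groups were highest at 24 h, at 192% of the 0 h level in Control, 147% in BF and 258% in BA. At 12 h Control stood at 28.2% of its 0 h level, against 95.1% in BF and 70.4% in BA. The difference at 24 h was 0.94 ± 0.35 (SE) and did not pass (limma adjusted p = 0.0654), although it did so in 4 of 21 alternatives. One of these left out the BF column at 12 h, the column with pancreatic markers (limma adjusted p = 0.0481). Over all 21 alternatives the limma adjusted p ran from 0.0196 to 0.261. With columns rescaled on their median gene the 24 h difference was 0.63 (limma adjusted p = 0.198). At 12 h ABCB4 differed by -0.77 ± 0.35 (SE, limma adjusted p = 0.127). Without the BF column at 12 h it was -1.12 (limma adjusted p = 0.0538). Without the Control column at 12 h it was -0.30 (limma adjusted p = 0.515).

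Bsep (ABCB11) and Mrp2 (ABCC2) are listed at 0 in all 12 columns, as are 2303 of the 14692 genes, or 15.7%. Such a 0 cannot be read as absence from liver. GAPDH, PPIA and ACTG1, which every cell uses, are listed at or below 0.54, 0.40 and 0.14 RPKM in the same table, whereas ACTB is at 242 RPKM or more. No course can be given for these pumps or for SLCO1A4.

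The basolateral exporters were low in every column. Mrp4 (ABCC4) stood at 2.39, 3.93, 3.46 and 3.31 RPKM in Control, 2.75, 1.74, 3.61 and 3.36 RPKM in BF and 3.29, 1.55, 2.32 and 2.78 RPKM in BA at 0, 4, 12 and 24 h. Its widest gap was at 4 h, when Control was 2.26-fold above BF and 2.54-fold above BA, the BA value coming from the column rich in albumin. No contrast of ABCC4 passed in the main fit. Its joint contrast with Control was -0.23 ± 0.16 (SE, limma adjusted p = 0.375), or -0.18 without that column (limma adjusted p = 0.519). At 4 h against 0 h it was -0.22 (limma adjusted p = 0.434), or -0.09 without the BA column at 4 h (limma adjusted p = 0.804). This difference passed in 1 of 21 alternatives, without the Control column at 4 h (-0.52, limma adjusted p = 0.0420). Mrp3 (ABCC3) stood at 0.66, 0.46, 0.40 and 0.68 RPKM in Control, 1.14, 0.39, 0.65 and 1.14 RPKM in BF and 0.44, 0.52, 0.48 and 0.68 RPKM in BA. With a mean under 1 RPKM it was not tested. Without the filter the smallest adjusted p of ABCC3 in limma was 0.140, for 4 h against 0 h.

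Counted together, 1 of the 6 tested members fell at 4 h, where 32.4% of all 8459 tested genes were called lower. At 12 h 3 of 6 fell, against 22.5% of all genes, and at 24 h 1 of 6 fell, against 5.54%. None was called higher at any time, where 12.9%, 9.03% and 30.6% of all genes were. The median difference of the 6 members was -0.42 at 4 h, -1.07 at 12 h and -0.09 at 24 h on the log2 scale, where the median over all genes was -0.20, -0.12 and 0.21. Of the members, 0 were called between groups by limma in any of 4 contrasts. Over all genes that share was 1.31% for BF and BA together against Control, 0.804% for BF, 0.0709% for BA, and 0.0118% for BF against BA, or 1 gene of 8459 by limma (661 at an unadjusted p under 0.05). ABCG5 and ABCG8, 2 of the 6 members, were under 0.05 before adjustment in each contrast of a fistula group with Control, and 0 were in BF against BA. Over all tested genes that share was 21.9% for BF, 22.7% for BA and 26.8% for both together.

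**Figure D3:**
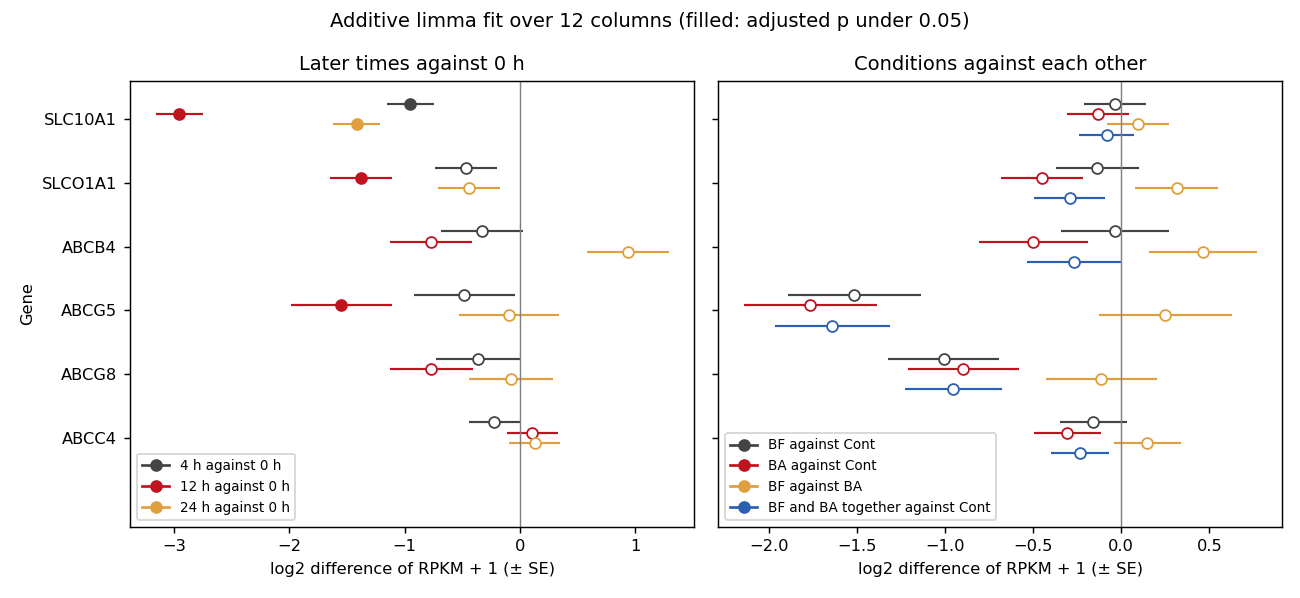
Log2 difference of RPKM + 1 with its SE for the 6 tested members, from the additive limma fit over 12 columns, for later times against 0 h (left) and for groups against each other (right). Filled circles have an adjusted p under 0.05: SLC10A1 at 3 times, and SLCO1A1 and ABCG5 at 12 h.

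Single columns were also compared, with no test, and a difference of at least 2-fold in RPKM + 1 was counted. At 4 h SLC10A1 was lower by that much in BF (6.92% of all genes), and 0 members differed by it in Control and BA (9.2% and 17.8% of all genes). In Control 5 of 6 members were lower by that much at 12 h, all but ABCC4, where 9.94% of all tested genes were. In BF and in BA 2 of 6 were, against 5.15% and 5.77%. At 24 h 4 of 6 were still lower by that much in Control, both uptake members and both sterolins (3.03% of all genes). In BF and in BA only SLC10A1 was (1.88% and 1.41% of all genes), and ABCB4 was 2-fold higher in BA (3.83% of all genes). At 0 h ABCG5 and ABCG8 were 2-fold lower than Control in BF and in BA, where 2.16% and 2.15% of all genes were. At 4 h the same was true of both in BF (3.16% of all genes), and of both and ABCB4 in BA (5.26% of all genes). At 12 h ABCB4 was 2-fold higher in BF than in Control (1.84% of all genes), at 24 h ABCG5 was lower in BF (1.31% of all genes), and in BA 0 members differed at 12 h and 24 h (1.71% and 2.05% of all genes). Between BF and BA, ABCB4 at 4 h was the only member past 2-fold (2.39% of all genes higher in BF).

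The genes around the members were read from a list of 43 further genes of hepatobiliary transport, conjugation and the canalicular scaffold, of which 37 were found and 34 tested. At 4 h 19 of the 34 were called lower and 2 higher, where 32.4% and 12.9% of all tested genes were. At 12 h 16 were called lower and 1 higher, where 22.5% and 9.03% of all were. At 24 h 5 were called each way, where 5.54% of all were called lower and 30.6% higher. The list's median difference was -0.65, -0.42 and 0.03 at the 3 times, and that of all genes -0.20, -0.12 and 0.21. Between groups, AQP9 was called higher in BF than in Control (0.62, limma adjusted p = 0.0350). RAB11A, a small GTPase of membrane recycling, was called lower in BF and BA together (-0.40, limma adjusted p = 0.0453), and no other listed gene was called. These calls are not given under alternatives. Over all genes, the number called in these contrasts fell from 68 and 111 to 2 in some alternatives.

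At 4 h the smallest adjusted p were those of the water channel AQP8 (-1.67), the canalicular linker radixin RDX (-1.33), ABCC6 (-1.19), the organic anion carriers SLCO2B1 (-1.08) and SLC22A7 (-0.75), and the glycerol channel AQP9 (-0.68). Between 0 h and 4 h AQP8 passed from 109 to 33.1 RPKM in Control, while BF passed from 127 to 36.3 RPKM and BA from 105 to 35.1 RPKM. At 12 h they were those of the enzymes that conjugate BA, SLC27A5 (-1.68) and BAAT (-2.28), of the carrier Oatp1b2, SLCO1B2 (-2.17), of EPHX1 (-2.24), RDX (-0.98) and ABCC6 (-0.88). SLCO1B2 stood at 453 RPKM at 0 h and 53.2 RPKM at 12 h in Control, at 392 and 123 RPKM in BF, and at 257 and 74.5 RPKM in BA. BAAT, which joins BA to taurine or glycine, stood at 1385 and 237 RPKM at these times in Control, at 1028 and 326 RPKM in BF, and at 1386 and 220.2 RPKM in BA.

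At 24 h ABCB1B, a multidrug pump of the same subfamily as ABCB4, was called higher by 2.63 (limma adjusted p = 0.000529). Its level at 0 h and 24 h was 4.54 and 42.4 RPKM in Control, 2.79 and 32.1 RPKM in BF, and 7.38 and 28.3 RPKM in BA. AQP8 (1.02) and the linker ezrin EZR (0.64) were also called higher by limma. SLC27A5 (-0.96), the water channel AQP1 (-1.29) and SLC22A8 (a fold of 0.501) were called lower. Reads of near-identical paralogs such as ABCB1 and ABCB1B could have been divided between them in the counting, which is not described.

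**Figure D4:**
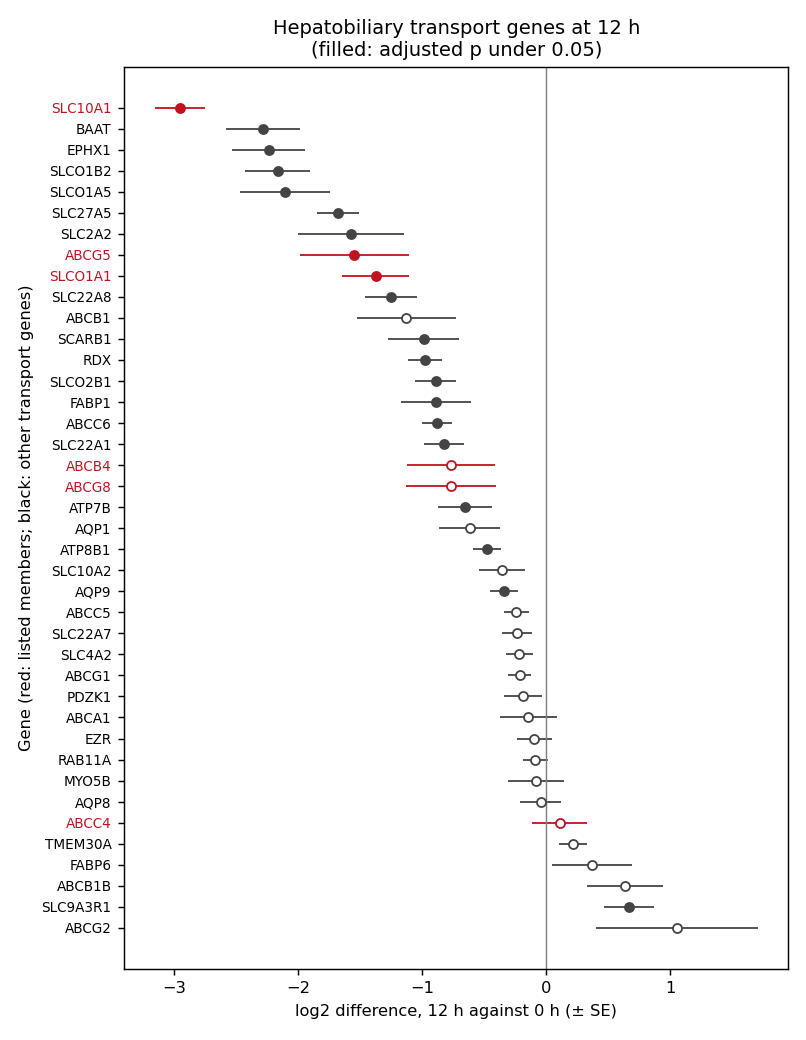
Log2 difference of RPKM + 1 at 12 h against 0 h with its SE, from the additive limma fit, for the 6 tested members (red) and the 34 tested transport genes of the list (black), with adjusted p under 0.05 filled. SLC10A1 has the lowest value of all the genes plotted at -2.95, and BAAT, EPHX1, SLCO1B2 and SLCO1A5 follow it at between -2.28 and -2.11.

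Of the receptors that govern these genes, Fxr (NR1H4), the BA receptor, was at 39.7, 20.7, 19.2 and 28.5 RPKM in Control at 0, 4, 12 and 24 h, at 52.2, 19.3, 33.0 and 53.2 RPKM in BF and at 47.4, 11.0, 24.1 and 42.8 RPKM in BA. Shp (NR0B2), the repressor that Fxr induces, was at 42.3, 10.6, 0.45 and 30.2 RPKM in Control, 20.2, 1.45, 1.21 and 10.4 in BF and 12.7, 1.85, 0.36 and 5.38 in BA. The joint contrast of both fistula groups with Control was -1.27 ± 0.33 for NR0B2 (SE, limma adjusted p = 0.0810) and 0.28 ± 0.17 for NR1H4 (SE, limma adjusted p = 0.322). Lxr alpha (NR1H3), the oxysterol receptor known to induce ABCG5 and ABCG8, was at 111, 52.8, 89.5 and 129 RPKM in Control, 119, 59.7, 109 and 141 in BF and 117, 31.8, 93.0 and 114 in BA. The NR1H3 difference of both fistula groups from Control was -0.01 ± 0.12 (SE, limma adjusted p = 0.974). Over time, NR0B2 was called lower at 4 h (-2.43, limma adjusted p = 0.00267) and 12 h (-3.83, limma adjusted p = 0.000793). NR1H4 was called lower at 4 h (-1.44, limma adjusted p = 0.0015) and 12 h (-0.87, limma adjusted p = 0.0206). NR1H3 was called lower at 4 h only (-1.3, limma adjusted p = 0.000603). None of these receptors was called at 24 h against 0 h. The lowest values of NR1H4 and NR1H3 over the 12 columns were in BA at 4 h, the column rich in albumin. Values of the 4 h calls without that column are not given.

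For each member above 0, the 3 genes with the most similar course were named by Pearson's r over the 12 columns, as a description. SLC10A1 ran closest to KMO (0.975), RNASE4 (0.974) and ENTPD8 (0.968), and SLCO1A1 to MRC1 (0.984), HACL1 (0.969) and SLC17A2 (0.962). Beside ABCG8, ABCG5 ran closest to ACADM (0.946) and SFXN1 (0.943), and ABCG8 to RGD1309362 (0.918) and PARG (0.916). ABCB4 ran closest to LOC681383 (0.953), FIZ1 (0.946) and PDXK (0.941). For the low members the values were smaller, with CNDP2 (0.825), RGD1309350 (0.802) and MAPK1IP1 (0.795) for ABCC4 and TRIM24 (0.844), ARHGEF3 (0.836) and TJP1 (0.83) for ABCC3. Ranked by Spearman's rho, 4 of the 21 genes stayed among the 3 closest. Among the members themselves, SLC10A1 and SLCO1A1 had r = 0.881, and SLC10A1 and ABCC4 had r = -0.16.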

How the data were processed

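Liver RNA of 3 groups of rats at 4 times was converted to poly(A) libraries, read for 50 cycles, and reduced by the authors to 1 deposited table of RPKM, a read number set relative to transcript length and library total, combined over 2 runs per column. The submitters' processing notes name Bowtie 0.12.2, CASAVA and the builds rn4 and mm8, without their roles. RPKM shares 1 total per library, so very abundant genes lower all others. The runs were averaged by RPKM per the paper's supplement, and the weight of the pooled run against the single rat is not given in the sources used here.

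From these values, log2(RPKM + 1) was fitted with limma 3.58.1 in R 4.3.3 (trend, additive group and time, 12 columns, Benjamini-Hochberg adjustment over the 8459 genes that reached 1 RPKM on average, threshold 0.05). With 1 column per group and time, an interaction could not be tested, and all values are the authors' means without an error. Of 200 genes changed by 1 on the log2 scale in simulated tables of 8459 genes, the 12 h contrast recovered 86% with 5 false calls, and the joint contrast of BF and BA with Control 91% with 8. With a change of 2 these contrasts recovered 96.5% with 12 false calls and 99% with 16. Normal noise was drawn independently for each gene and column. The spread between rats could not enter these tables, because it cannot be computed from 1 column per group and time. How far these shares and false calls hold for the 12 measured columns was not tested. In those columns the joint contrast called 111 genes, but 2 without Control at 0 h. Alternatives were an added 0.1 RPKM, no filter, columns rescaled on their median gene (factors 0.758 to 1.19), no trend, a 1.5-fold limit, Spearman's rho, and leaving out each column, group or time.

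All members were named, with 3 genes of similar course each and up to 6 called genes of the transport list per contrast, in order of adjusted p. ALB, SERPINA1, GAPDH, PPIA, ACTG1, ACTB and the receptors were named beside a result. The members and lists were chosen with earlier results of these data known. Promoter sequences were those of RefSeq on GRCr8, and 8 of the 10 members matched. Further analysis used Python 3.11.15, pandas 2.3.3 and matplotlib 3.10.9.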

Additional observations from a re-analysis of the deposited data

Results flagged for a closer look

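Some members had differences from 0 h of opposite sign in 2 groups that lay at least 1 apart on the log2(RPKM + 1) scale. The sign can rest on a very small difference, as for ABCG5 in BF at 24 h (0.02). These gaps between single columns were not tested, because every group has a single column at each time. ABCC4 differed from 0 h by 0.54 at 4 h in Control and by -0.75 in BA, 1.29 apart, and the BA column at 4 h is the one in which ALB took 30.9% of the summed RPKM. In BF the ABCC4 difference at 4 h was -0.45. At 24 h ABCG5 differed from 0 h by -1.10 in Control, by 0.02 in BF, 1.12 apart, and by 0.80 in BA, 1.89 apart. ABCG8 did so by -1.06 in Control, by 0.25 in BF, 1.31 apart, and by 0.58 in BA, 1.65 apart. The ABCG5 and ABCG8 values share the Control column at 0 h, the highest of all 12 for both.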

How the results depend on the processing

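No paired analysis was possible because each group and time has 1 column and no replicate numbers link samples, and the additive fits match the groups by time only. Single-gene values were followed only for results called in the main fit: SLC10A1 at 3 times, and SLCO1A1 and ABCG5 at 12 h. Of these 105 values under alternatives, 99 stayed on the same side of 0 and of the threshold. The other 6 lost their call, 5 for ABCG5 and 1 for SLCO1A1, all at 12 h, and none of the 105 changed sign. In some alternatives the difference itself stayed the same and only its SE and adjusted p moved. Differences not called could change sign, such as that of ABCG5 at 24 h (-0.54 to 0.41). The cause of the lost calls was not tested. Leaving out 1 column, group or time gave 1 to 2 members called at 4 h, 2 to 3 at 12 h, 1 to 2 at 24 h and 0 to 2 in BF and BA together against Control. With 0.1 RPKM added, 1 member (ABCG5) was called in that joint contrast. Over all genes the joint contrast called 111, but 4 without the filter and 44 with rescaled columns, and BF against Control 68, but 2 without the filter. Leaving out 1 column moved the joint count to between 2 (without Control at 0 h or 4 h) and 133, and that of BF against Control to between 2 (without Control at 4 h or BF at 0 h) and 77, and without all 4 h columns both were 0. A limit of 1.5-fold in place of 2-fold gave 11 differences over time in BA (4 at 2-fold), 12 of BF with Control (6), 10 of BA with Control (5) and 4 of BF with BA (1). For BF with BA, 0.1 RPKM added gave 2 and rescaled columns gave 0. The ABCG5 to ABCG8 log2 ratio was 2.55 with 0.1 RPKM added. By Spearman's rho, 4 of 21 genes of similar course remained. Read depth per column is unknown and limits values near or under 1 RPKM, such as those of ABCC3 and ABCG8.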
